A study of Mus musculus with 24 samples.

Results

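The 315 regions described here lay outside annotated genes and carried peaks in 8-cell embryos or blastocysts. They are part of 31379 merged peak regions of N6-methyladenosine (m6A) in mouse oocytes and preimplantation embryos. None held peaks in 5 or more of the 6 oocyte and zygote lists or was newly present in both replicates of 2-cell embryos. They were chosen by presence or absence in the 12 peak lists: the intervals of all lists were merged where they overlapped, and a region was kept if it overlapped no gene of any type, held a peak in at least 2 of the 4 8-cell and blastocyst lists (the late lists), held peaks in fewer than 5 of the 6 lists of GV oocytes, MII oocytes and zygotes (the maternal lists), and was not in both 2-cell lists without a maternal peak. The 315 regions are 315 of 6399 intergenic merged regions, and of 431 intergenic regions with peaks in at least 2 late lists. Of those not kept, 17 were left out for 5 or 6 maternal lists and 99 for both 2-cell lists with no maternal one.

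All libraries came from C57BL/6N mice aged 8 weeks. The series covers 6 stages with 2 replicates that its design text calls biological. GV oocytes still hold the germinal vesicle, and those used had a surrounded nucleolus; MII oocytes are at metaphase II; zygotes, then embryos of 2 and of 8 cells, and blastocysts follow. Every female received pregnant mare serum gonadotropin, and human chorionic gonadotropin (hCG) was added for all stages but the GV one. Collection followed hCG by 14 h for MII oocytes, and mated females were flushed 27 to 28 h after it for zygotes. The same interval was 39 to 43 h for embryos of 2 cells, 68 to 70 h for those of 8 cells, and 92 to 94 h at the last stage. Each library pooled 100 embryos or oocytes, except for 49 in both GV pools, 110 in an MII pool and 51 in an 8-cell pool, so cells of different lineages within a blastocyst are mixed and fewer cells of a type cannot be told apart from less RNA per cell. The 12 immunoprecipitated libraries had 6914 to 11959 peaks each; the inputs were not analysed here, read depth was unknown, and a region without a peak can be untranscribed, unmethylated or under the detection limit of its list. Of 6 oocyte markers, 4 carried a peak over the gene in each maternal list and 0 to 2 in each late list; of 7 trophectoderm markers, 5 did in each late list and 2 in every earlier one; of 8 cumulus cell markers, 0 to 3 did in the maternal lists and 0 in each later list.

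m6A is written on adenosines of RNA by the METTL3 and METTL14 methyltransferase complex, mostly within the DRACH consensus, of which GGACT, in DNA letters, is the best known core, and in messenger RNA it is concentrated near stop codons and in 3′ untranslated regions. The mark is not confined to coding RNA: long noncoding RNA and RNA of retrotransposons carry it too, and in mouse embryonic stem cells nuclear m6A readers bind retrotransposon RNA. Peaks outside genes in early embryos can thus come from unannotated transcripts, from transcripts that run past an annotated gene end, or from repeats; no repeat annotation or genome sequence was used here, and none of these sources was tested.

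The promoter windows that touch a member are the places where sequence can be set beside a peak. Of the 315 regions, 2 overlapped one of the 32851 RefSeq promoter windows of GRCm38.p6, which run from 250 bases before to 50 after a gene start. Both are shown 5′ to 3′ on the plus strand in full, with the part covered by the merged region in capitals.
Tbc1d22a, chr15:86214209-86214508, plus strand: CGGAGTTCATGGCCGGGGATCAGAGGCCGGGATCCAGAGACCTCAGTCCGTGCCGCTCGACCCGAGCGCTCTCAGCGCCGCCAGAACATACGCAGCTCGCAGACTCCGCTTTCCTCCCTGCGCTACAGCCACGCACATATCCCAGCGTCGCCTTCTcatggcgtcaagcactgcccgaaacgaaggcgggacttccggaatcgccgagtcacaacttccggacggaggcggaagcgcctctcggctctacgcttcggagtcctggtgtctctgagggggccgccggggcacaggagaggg
Sema4b, chr7:80186620-80186919, plus strand: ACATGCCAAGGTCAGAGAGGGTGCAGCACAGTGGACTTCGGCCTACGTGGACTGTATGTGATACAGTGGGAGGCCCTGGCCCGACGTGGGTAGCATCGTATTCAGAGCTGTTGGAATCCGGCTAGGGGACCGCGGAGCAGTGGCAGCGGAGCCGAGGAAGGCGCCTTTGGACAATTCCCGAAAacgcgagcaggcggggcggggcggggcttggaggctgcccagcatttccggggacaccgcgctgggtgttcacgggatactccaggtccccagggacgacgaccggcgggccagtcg
The covered part of the Tbc1d22a window (a gene of the TBC family of Rab GTPase-activating proteins) is 156 bases with a G+C content of 65.4%, and that of the Sema4b window (a semaphorin, a family of guidance signals) is 183 bases with 60.1%. The letters GGACT occurred 2 times on the plus strand and 0 times on the minus strand in the covered Sema4b part, and 0 times on the plus strand and 1 time on the minus strand in the covered Tbc1d22a part. On either strand, GGACT was present in 45.5% of all promoter windows, so its presence in both is a description of these letters only. The Tbc1d22a region was among the members with the longest history: it had 6.77- and 7.18-fold enrichment in the GV oocyte lists, 3.85-fold in MII oocyte replicate 1, 5.52-fold in zygote replicate 2, 9.04- and 13.8-fold in 2-cell embryos, 8.48- and 9.82-fold in 8-cell embryos and 5.67-fold in blastocyst replicate 1. It was missing from MII oocyte replicate 2, zygote replicate 1 and blastocyst replicate 2. The Sema4b region was found in the 8-cell lists alone, with 6.85- and 4.43-fold enrichment. Fold enrichment here and below is the authors' own value for the peak, antibody-bound over input RNA, and is used to describe or to rank peaks within a list.

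More of the 315 members carried peaks in 8-cell embryos than in blastocysts. The direction turned when either 8-cell replicate was left out of the choice of members (differences of 17.5 and 21 regions, blastocyst minus 8-cell). That turn is partly set by the rule, since a region then needed a blastocyst peak to be kept. Members in both 8-cell and neither blastocyst list fell from 113 to 0, while those of blastocysts without an 8-cell peak numbered 47 and 49. Leaving out a blastocyst replicate moved the difference the other way, to -117.5 and -103. Blastocyst lists held 169 and 154 of the 315 members (161.5 ± 10.6, SD, n = 2), and 8-cell lists 240 and 246 (243.0 ± 4.24, SD, n = 2). The difference was -81.5 regions, blastocyst minus 8-cell. The member counts of the 2 stages did not overlap. They come from the same lists that chose the members, so they are a description and no test is given. Regions that overlapped a gene and had peaks in at least 2 late lists numbered 6599 and 5049 in the blastocyst lists. In the 8-cell lists they numbered 6171 and 6714, so for them the stages overlapped. As a share of all intergenic regions in the list, the members made up 56.3% and 29.2% in blastocysts and 35.7% and 40.1% in 8-cell embryos, so on this scale the stages overlapped and the mean difference had the opposite sign (4.85 percentage points). Blastocyst replicate 1 had 300 intergenic regions and replicate 2 had 528, against 673 and 613 in the 8-cell lists. In the earlier lists, where the rule limits them, members numbered 20 and 21 in GV oocytes, 8 and 6 in MII oocytes, 10 and 21 in zygotes, and 34 and 23 in 2-cell embryos.

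**Figure D1:**
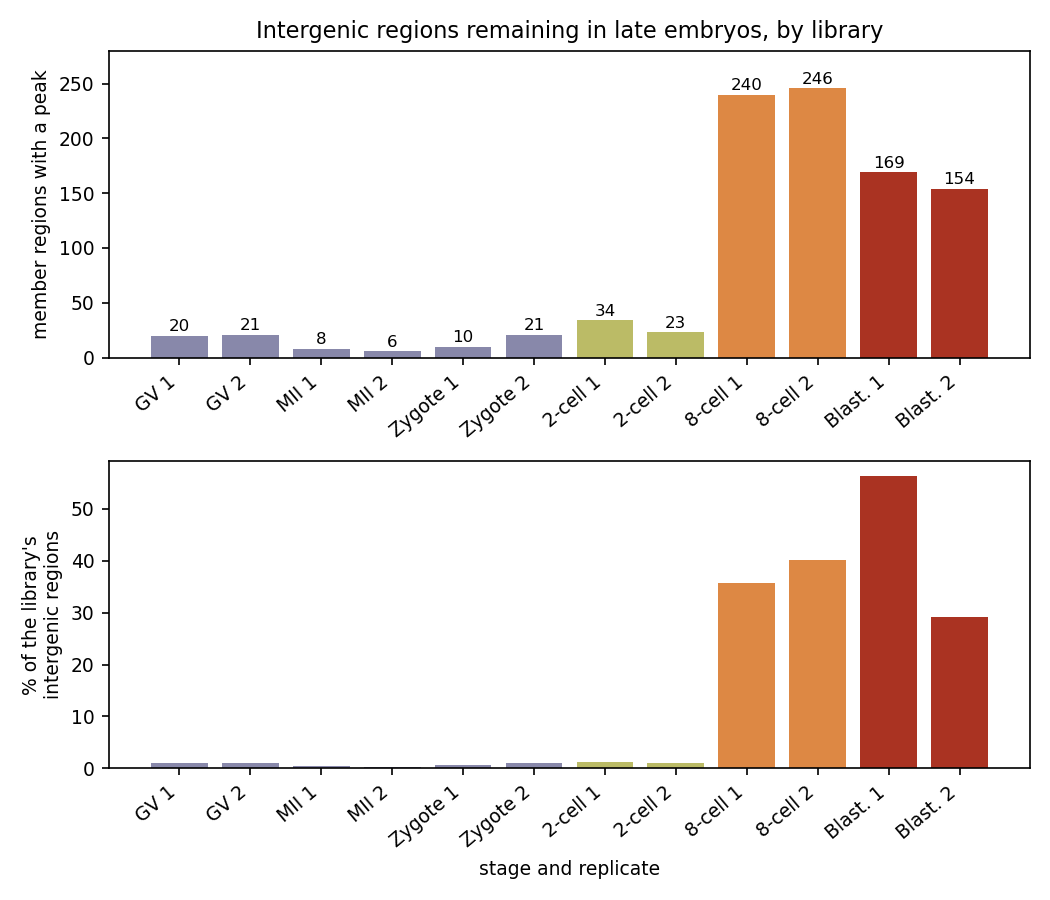
Bars give, for each of the 12 libraries in developmental order, the number of the 315 member regions with a peak (top) and their share of all intergenic regions in that list in percent (bottom). The 8-cell libraries hold 240 and 246 members and the blastocyst libraries 169 and 154, while the shares run from 29.2% to 56.3% over these 4 libraries.

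The largest group of members was seen in both 8-cell lists and not in blastocysts. Both blastocyst and neither 8-cell list held 40 of the 315 members (12.7%), where 8.96% of all 8491 merged regions with peaks in at least 2 late lists had this pattern. Both 8-cell and neither blastocyst list held 113 members (35.9%), against a background of 13.8%. All 4 late lists held 65 members (20.6%), against 38.3% of all such regions and 39.3% of the 8060 genic ones. A further 48 members had 1 list of each stage, 33 had both 8-cell lists and 1 blastocyst list, and 16 the reverse. The share of members marked in all 4 lists was thus smaller than the background share. The shares marked in only 1 of the late stages were larger, for blastocysts as well as for 8-cell embryos. Of the 8491 background regions 8060 were genic and 431 intergenic, so the contrast is mainly with genic regions. The intergenic regions that the rule left out were not counted apart. These shares therefore cannot be called particular to the members. No test over regions was run, since regions are not replicates. The sharing between replicates of a stage is partly set by the rule, since a region of 1 late stage needed both its lists, for members and genic regions alike. With that limit, 59.9% of the members with any blastocyst peak had both, against 64.7% of genic regions, and 76.7% of those with any 8-cell peak, against 75.6%.

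**Figure D2:**
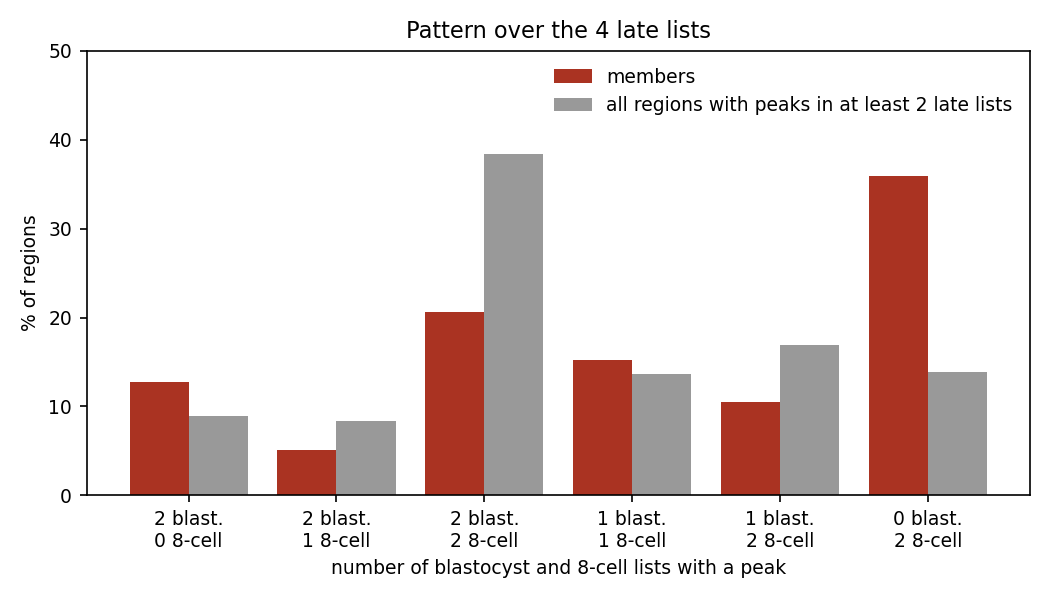
Paired bars give the share of regions in percent with each combination of blastocyst and 8-cell lists, for the 315 members (left bar of each pair) and for all 8491 regions with peaks in at least 2 late lists (right bar). Members in both 8-cell lists and no blastocyst list make up 35.9% against 13.8%, and those in all 4 lists 20.6% against 38.3%.

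Before the 8-cell stage most members had no peak. Of the 315, 238 (75.6%) were in none of the 8 earlier lists, 41 were in at least 1 maternal list and 51 in at least 1 2-cell list. Of the 26 members with a GV oocyte peak, 14 had none in MII oocytes or zygotes, and 8 of these 14 were in both GV oocyte lists. These counts are set in part by the rule and describe the members. The 17 and 99 intergenic regions with at least 2 late lists that the rule left out all had earlier peaks. The rule therefore raised the share of 75.6%, and no such share was computed for genic regions.

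At the threshold the regions just inside had the higher medians in 4 of 4 late lists. Among the 201 members with exactly 2 late lists, the median fold was 6.33 and 7.68 in the blastocyst lists and 6.42 and 6.03 in the 8-cell lists. Among the 903 intergenic regions that failed with exactly 1 late list, it was 6.05 and 6.23 in the blastocyst lists and 5.78 and 5.71 in the 8-cell lists. The median −log10 q-value was 11.3 and 9.78 in the blastocyst lists and 10.1 and 12.4 in the 8-cell lists for these 201 members, against 8.41 and 7.07 (blastocyst) and 6.58 and 8.41 (8-cell) for the 903. The maternal limit divided 5 members with 4 maternal lists from 17 regions left out with 5 or 6.

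Of the 65 regions in all 4 late lists, the one with the highest mean percentile of fold enrichment over these lists lay 4482 bp upstream of Opa1, which encodes the mitochondrial inner membrane fusion GTPase, at mm10 chr16:29574583-29574799. It had 75.1- and 102-fold enrichment in blastocysts and 45.4- and 50.4-fold in 8-cell embryos. Earlier it appeared at 6.80-fold in GV oocyte replicate 2, 11.8- and 19.9-fold in zygotes and 30.5-fold in 2-cell replicate 1. Its enrichment was higher in both libraries of each later stage than in every earlier list that held it, but it was absent from 4 earlier lists, GV oocyte replicate 1, both MII oocyte lists and 2-cell replicate 2. A region 4981 bp from the long noncoding RNA Gm42030 (chr8:83756689-83757038) had 101- and 189.6-fold enrichment in blastocysts against 13.7- and 9.20-fold in 8-cell embryos, and 13.1-fold in 2-cell replicate 1. Both blastocyst values stood above both 8-cell values there, and each stood above the Opa1 value of the same blastocyst list. Enrichment is ranked here within a list, and no test compared these folds between stages.

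Other regions of all 4 late lists had little or no earlier signal. The region 50669 bp from Foxq1, a forkhead transcription factor gene, at chr13:31507288-31507501 had 25.05- and 19.9-fold enrichment in blastocysts, 27.6- and 14.0-fold in 8-cell embryos, and 4.36-fold in 2-cell replicate 1. The blastocyst values fell between the 8-cell values. At 8339 bp from the pseudogene Gm9305 (chr12:23702571-23703096) the values were 12.9- and 29.0-fold in blastocysts and 11.2- and 17.4-fold in 8-cell embryos. At 33571 bp from Gm14367 (chrX:5114535-5115007) they were 13.3- and 23.6-fold in blastocysts and 10.9- and 10.3-fold in 8-cell embryos. At 1566 bp downstream of Gm14288 (chr2:175788751-175788982) they were 12.4- and 13.3-fold in blastocysts and 15.0- and 18.1-fold in 8-cell embryos. None of these 3 had a peak in any of the 8 earlier lists, and the last had the same 232 bp interval width in all 4 late lists. The region 4495 bp from Jade2, a PHD finger gene of a histone acetyltransferase complex (chr11:51808746-51808953), had 11.6- and 13.1-fold in blastocysts and 15.8- and 9.48-fold in 8-cell embryos, with no earlier peak.

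Some members were wide. The region near Tspyl5, which encodes a protein of the nucleosome assembly family, spanned 1208 bp at chr15:33835812-33837019, lay 147929 bp from that gene and was in none of the earlier lists. Its enrichment was 11.3- and 14.5-fold in blastocysts and 13.5- and 11.4-fold in 8-cell embryos. The highest-fold peak of each list was 929 and 597 bp wide in blastocysts and 1121 and 1013 bp in 8-cell embryos. The widest member, 1500 bp at chr12:19075036-19076535, lay 1254 bp downstream of the predicted gene Gm40847. Its highest-fold peaks measured 1422 and 201 bp in blastocysts and 200 and 591 bp in 8-cell embryos, so the peak of blastocyst replicate 1 alone spanned most of the merged width. The region 5879 bp upstream of Fam118a (chr15:85029964-85031183) was 1220 bp wide, and the highest-fold peaks of the late lists in it were at most 404 bp wide. Over all 315 members the merged width had a median of 304 bp, from 200 to 1500 bp.

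Blastocyst regions without an 8-cell peak were led by one at chr12:93576998-93577287, 132175 bp from the noncoding gene 4930559C10Rik, with 23.3- and 47.0-fold enrichment. A region 15272 bp from the snRNA gene Gm26295 (chr16:30829540-30829747) had 15.1- and 26.0-fold, and one 540 bp from Gm17067 (chr7:42703614-42704497) 19.2- and 16.6-fold. None of these 3 had an earlier peak. The fourth, 8484 bp downstream of Fam124b (chr1:80189848-80190215), had 11.7- and 18.1-fold in blastocysts and had already been present at 6.73- and 5.62-fold in both GV oocyte lists, with no peak in the 8 lists between.

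The 8-cell regions without a blastocyst peak were led by one 19614 bp from Gm16513 (chr5:95162794-95163010), with 17.6- and 31.4-fold enrichment. A region 17272 bp from the solute carrier gene Slc45a4 (chr15:73663029-73663353) had 15.5- and 22.3-fold, and one 6443 bp downstream of Upk3a, a uroplakin gene (chr15:85029003-85029487), 14.3- and 9.73-fold. These 3 had no earlier peak. Next to the Upk3a region, the one upstream of Fam118a (chr15:85029964-85031183) held peaks in all 4 late lists, with 4.80- and 10.8-fold in blastocysts. That locus was therefore not confined to 8-cell embryos. The region 12802 bp from Gm20819 on chromosome Y (chrY:88521784-88522001) had 16.3- and 14.3-fold in 8-cell embryos, 4.45-fold in 2-cell replicate 2, and 13.8- and 11.3-fold in GV oocytes.

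Of the members with 4 maternal lists, the one 246 bp from Pnp2, a purine nucleoside phosphorylase gene (chr14:50964997-50965254), had 5.75- and 6.54-fold enrichment in MII oocytes, 13.3- and 9.05-fold in zygotes, 7.42-fold in 2-cell replicate 1, 14.1- and 13.6-fold in 8-cell embryos and 14.8- and 13.0-fold in blastocysts. It was absent from both GV oocyte lists. The region 111542 bp from the pseudogene Gm20241 (chr14:8799451-8800344) was likewise absent from GV oocytes and present in every later list. Its enrichment was 9.21- and 8.94-fold in MII oocytes, 9.07- and 13.4-fold in zygotes and 8.79- and 12.3-fold in 2-cell embryos. It was 10.8- and 10.2-fold in 8-cell embryos and 11.8- and 17.3-fold in blastocysts. The most uneven was a region 3298 bp downstream of the noncoding gene Gm36107 (chr14:106274733-106274961): replicates differed from 28.4- to 141-fold in 2-cell embryos, and 1 list of each of the GV oocyte, MII oocyte and 8-cell pairs did not hold it.

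**Figure D3:**
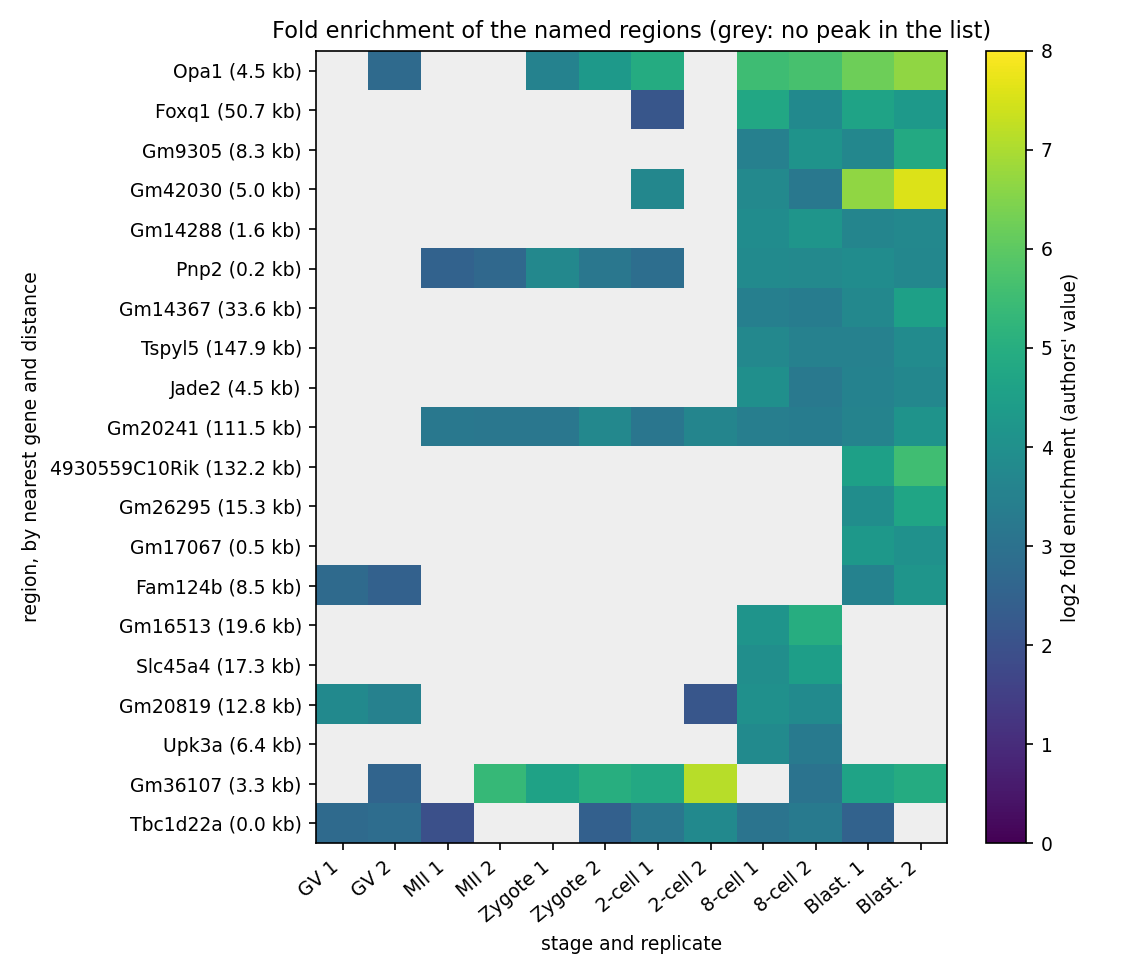
Each row is a member region, labelled by its nearest gene and the distance to it, and each column a library in developmental order; the colour gives the authors' fold enrichment on a log2 scale and grey means no peak. The Opa1 and Gm42030 rows reach the highest late values, 102- and 189.6-fold in blastocyst replicate 2, and the rows from 4930559C10Rik to Upk3a hold peaks of 1 late stage.

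Chromosome Y held 13 members, 4.13% of the 315, beside 0.789% of the other 6084 intergenic regions. These others include the 1385 regions of oocytes and zygotes, of which 1 lay on chromosome Y, and the 907 of 2-cell embryos, of which 9 did. The 2 sets thus differ in stage, and the share was not compared within the late lists. By library, 10 and 10 of the 13 members had a peak in blastocysts and 7 and 9 in 8-cell embryos. Peaks assigned to chromosome Y were also present in oocytes, which carry no Y chromosome: 3 to 7 merged regions of any kind in each oocyte list, among them members near Gm20841 and Gm20819 in both GV oocyte lists. A region near Gm8525 (chrY:3921272-3921476) had 19.6-fold enrichment in MII oocyte replicate 2, 8.86- and 24.7-fold in zygotes, 26.2- and 20.4-fold in 2-cell embryos, 7.71- and 5.08-fold in 8-cell embryos and 7.55- and 50.9-fold in blastocysts. How reads with several matches in the genome were placed is not given in the sources used here, so the chromosome of such a peak is uncertain. Without chromosome Y the difference between the stages was -83.5 regions.

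Members also lay in groups: 92 of the 315 were within 100 kb of another member, in 39 groups, of which 8 held 3 or more (30 regions). No background was computed for this grouping, so the counts are a description. The largest, 6 regions over 67079 bp of chromosome 3 (93647512 to 93714590), lay beside Tdpoz2 and the pseudogenes Gm9107 and Gm18433, in the cluster of Tdpoz genes, a family of near copies active in early embryos. Blastocyst lists held 4 and 2 of these 6 regions and 8-cell lists all 6 each. A group of 4 on chromosome 4 near Gm21012 and Pramel30, in the Pramel cluster, had 1 and 2 in blastocysts and 4 and 3 in 8-cell embryos. The 4 regions beside Gm20590 on chromosome 13 spanned 3175 bp, with 1 and 0 in blastocysts and all 4 in each 8-cell list. In all 8 groups each blastocyst list held fewer members than, or as many as, each 8-cell list. Both families have near-identical copies, so the copy a peak belongs to is uncertain.

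The neighbours on 5 gene lists were counted next. Genes of the 2-cell stage and genome activation were the nearest gene of 7 members (2.22%), beside 0.608% of the other intergenic regions. The 7 regions lay near Tdpoz2 (3), Tdpoz3 (2), Pramel7 and Sp110, and 5 of these 7 had both 8-cell lists and no blastocyst list. The 2 others, 1604 and 3143 bp from Tdpoz2, had a peak in blastocyst replicate 1 besides both 8-cell lists, with 5.49- and 6.52-fold enrichment there. Both 8-cell lists and no blastocyst list was the pattern of 35.9% of all members, and of 13.8% of all regions with peaks in at least 2 late lists. The Tdpoz2 and Tdpoz3 regions all lay among near copies on chromosome 3, so the 7 regions are not independent neighbours. The pluripotency genes gave 2 members, near Klf5 and Dppa4, the trophectoderm genes 1, near Gata3, and the primitive endoderm and oocyte genes 0. These counts are too small to set the lists apart.

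The Klf5 region is the listed neighbour nearest to its gene. Klf5 encodes a Krüppel-like factor of the inner cell mass and trophectoderm, and the region lay 822 bp from it at chr14:99314234-99314825. It had 2.48- and 2.70-fold enrichment in blastocysts, 2.86- and 3.27-fold in 8-cell embryos and no earlier peak, so its enrichment was low and alike in the 4 lists. The region 2346 bp upstream of Pramel7, of the PRAME-like family (chr2:87494764-87495005), had 4.30- and 4.71-fold and the one 2789 bp downstream of Sp110, a nuclear body gene (chr1:85567533-85567946), 4.51- and 5.43-fold, both in the 8-cell lists. The Dppa4 region, 21367 bp from that chromatin factor gene, had 7.89-fold in blastocyst replicate 1 and 6.98-fold in 8-cell replicate 2. The Gata3 region, 66136 bp downstream of that trophectoderm transcription factor gene, had 9.62-fold in blastocyst replicate 2 and 4.42-fold in 8-cell replicate 2. These last 2 were held by 1 library of each stage.

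Over all regions the members lay closer to genes than other intergenic peaks did. Their median distance to the nearest gene was 6445 bp, against 17576 bp for the 1385 intergenic regions of oocytes and zygotes (5 or 6 maternal lists), 13826 bp for the 907 of both 2-cell lists with no maternal peak, and 13183 bp for all 6084 others. Within 5 kb of a gene lay 127 members (40.3%), against 20.9%, 24.0% and 27.1% of these sets. Inside the late libraries the picture was different. Of the members in a list, 36.7% and 35.7% lay within 5 kb in blastocysts and 40.0% and 39.8% in 8-cell embryos, against 45.8% and 33.2% (blastocyst) and 36.3% and 42.0% (8-cell) of the other intergenic regions of the same list. The members were closer in 2 of the 4 libraries, the mean difference was -1.23 percentage points (SD 5.83, n = 4), and the test did not separate the sets (exact two-sided sign-flip permutation p = 0.875, adjusted p = 0.875 over 3 comparisons of members; the smallest p that 4 libraries allow is 0.125). Under stricter peak sets a smaller share of members than of others lay within 5 kb: the difference was -11.8 points with peaks of a score at or above the median and -8.63 with lists shortened to an equal length, and it was -4.43 with predicted gene models left out (exact permutation p = 0.125 for each).

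**Figure D4:**
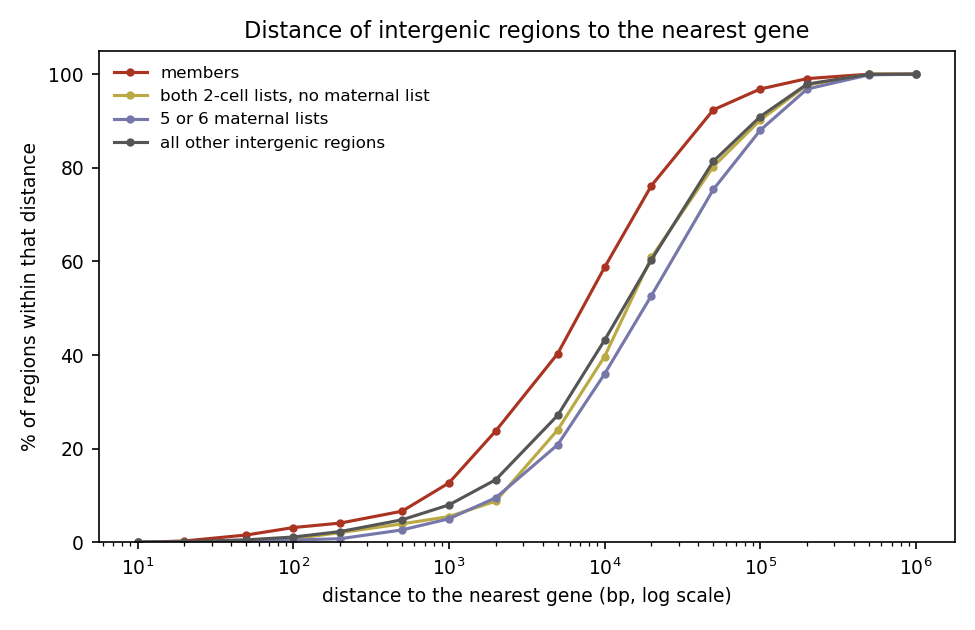
Lines give the share of regions in percent (y axis) within a given distance in bp of the nearest gene (x axis, log scale) for the members, the 2-cell regions, the oocyte and zygote regions and all other intergenic regions. At 5000 bp the members stand at 40.3%, the 2-cell regions at 24.0%, the oocyte and zygote regions at 20.9% and the others at 27.1%.

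The nearest gene was protein-coding for 165 members (52.4%), a pseudogene for 80 (25.4%) and a long noncoding RNA for 53 (16.8%), while among the other intergenic regions protein-coding genes made up 38.6%, pseudogenes 28.3% and long noncoding RNAs 25.1%. Where the strand of that gene was listed, 90 members lay downstream and 68 upstream, and within 5 kb 45 lay downstream and 29 upstream. Among the others within 5 kb, 457 lay on each side. The 65 members of all 4 late lists had a median distance of 15372 bp, against 6144 bp for the 201 with 2 late lists, so the members shared by all late lists had the larger median distance. For these 65 the nearest gene was protein-coding in 43.1%, a pseudogene in 38.5% and a long noncoding RNA in 15.4%. The shares by gene type pool all stages and were not compared within a library.

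The members nearest to a gene lay at the very edge of the gene body in the gene table, whose limits can differ from the start used for the promoter windows, as they do for Mllt6. The region at chr11:97662710-97663109 was 13 bp upstream of Mllt6, a gene known as a fusion partner in leukaemia, with 6.23-fold enrichment in blastocyst replicate 2 and 12.8- and 6.67-fold in 8-cell embryos. The one 36 bp downstream of Rsc1a1 (chr4:141683088-141683527) had 3.65-fold in blastocyst replicate 1, 3.82- and 6.18-fold in 8-cell embryos and 3.21- and 3.48-fold in GV oocytes. The one 49 bp downstream of Tmem126b, an assembly factor of respiratory complex I (chr7:90468399-90468784), had 4.96- and 7.13-fold, in blastocysts alone of the late stages. Regions 21 bp downstream of Gm31852 and 53 bp from the zinc finger gene Zfp251 were in both lists of 1 late stage, 8-cell for the first and blastocyst for the second, and each in 1 2-cell list. At the other end, the member farthest from a gene lay 333510 bp from Gm31086 on chromosome 18 and was in all 4 late lists.

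For members within 5 kb, the neighbouring gene often carried m6A in the same list. Its body held a peak for 36 of 62 such members in blastocyst replicate 1 (58.1%) and 24 of 55 in replicate 2 (43.6%), and for 44 of 96 (45.8%) and 49 of 98 (50.0%) in 8-cell embryos. Among the other intergenic regions within 5 kb in the same lists, 31.7% and 24.2% (blastocyst) and 32.5% and 39.6% (8-cell) had a marked neighbour. The members' share was higher in 4 of 4 libraries. This comparison was added after the values had been seen and was not tested. Of the 127 members within 5 kb, 79 had a neighbour marked in at least 1 late list and 46 had one marked in none of the 12 lists.

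Compared with genic regions that met the same requirement of 2 late lists, the member peaks were narrower. Their median width was 212 and 204.5 bp in blastocysts and 242 and 242.5 bp in 8-cell embryos, against 348 and 286 bp (blastocyst) and 307 and 333 bp (8-cell) for genic regions. The mean difference was -93.2 bp (SD 30.4, n = 4), with the members narrower in 4 of 4 libraries (exact two-sided sign-flip permutation p = 0.125, the smallest possible; adjusted p = 0.188). Among regions in exactly 2 late lists, an alternative added after seeing the data, the mean difference was -20.4 bp (exact permutation p = 0.25). With the number of lists matched in this way, the members were thus not narrower in every library. Peaks under 250 bp made up 59.2% and 65.6% of the members' peaks in blastocysts and 51.7% and 53.3% in 8-cell embryos, against 31.8% and 42.1% (blastocyst) and 38.6% and 33.6% (8-cell) of genic ones; the lower limit of the deposited intervals is 200 bp.

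Fold enrichment of the members ranked above that of genic regions. The median percentile within the list was 56.7 and 70.1 in blastocysts and 57.8 and 59.5 in 8-cell embryos, against 55.6 and 56.9 (blastocyst) and 56.4 and 56.2 (8-cell) for genic regions. The mean difference of 4.75 percentile points (SD 5.75, n = 4) was positive in 4 of 4 libraries and did not pass the test (exact two-sided sign-flip permutation p = 0.125, adjusted p = 0.188). With members chosen and compared without blastocyst replicate 2 it was 0.20. It was 12.2 among regions in exactly 2 late lists, an alternative added after seeing the data, 10.9 with the score limit and 7.85 with equal numbers of peaks (exact permutation p = 0.125 for each). Ranked by q-value the order turned round: the members' median percentile was 39.4 and 59.2 in blastocysts and 44.5 and 47.0 in 8-cell embryos, against 59.9 and 63.9 (blastocyst) and 60.3 and 59.9 (8-cell), a mean difference of -13.5 (exact permutation p = 0.125).

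**Figure D5:**
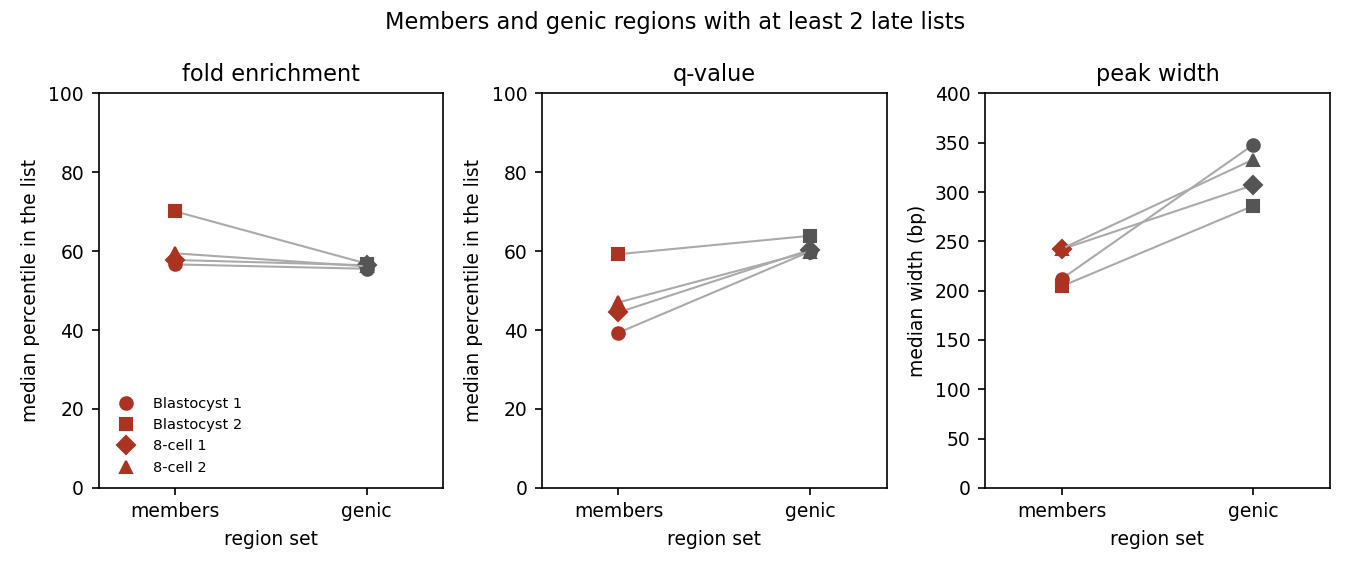
Each symbol is the median over regions in 1 late library, members on the left and genic regions with peaks in at least 2 late lists on the right, joined by a line, for the percentile of fold enrichment, the percentile of the q-value and the peak width in bp. The members are above the genic regions in fold percentile in 4 of 4 libraries and below them in q-value percentile and in width in 4 of 4.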

How the data were processed

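Per the submitters' processing notes, reads were handled on the mm10 build with tools that include MACS2 2.1.2, HISAT2 2.1.0, bedtools 2.28.0 and cutadapt 1.8.1. No settings were found for them. Names inside the deposited lists show that peaks were called per replicate, with the matching input as background. The authors give each summit a score (a whole number made from the q-value, with a factor of 10), a fold enrichment (a ratio) and −log10 p- and q-values, used here as deposited. The 143579 summits were collapsed to 113764 peaks of distinct intervals, keeping the best q-value; intervals sharing at least 1 bp were merged. No counts are given, so depth is unknown.

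Genes were 49980 entries of a RefSeq table of GRCm38.p6, the assembly of mm10; strand, from the promoter table, was listed for 27025. Intergenic means outside these genes. Distances are to the nearest gene body, and where a list had several peaks in a region the highest fold was used. Values per library were compared by exact permutation with Python 3.11.15, adjusted by Benjamini-Hochberg over 3 comparisons. The rule and tests were tested on simulated lists. The members and lists were chosen with earlier results of these data known. Regions were named by rank of fold percentile within each late pattern, by maternal lists, width, distance and listed neighbours. The regions near Sema4b, Gm8525, Gm20841, Dppa4 and Gata3 were named after their values were seen.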

Additional observations from a re-analysis of the deposited data

How the results depend on the processing

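The member set depended on how peaks and genes were defined: the rule gave 315 regions as reported, 108 with peaks of a score at or above the median, 716 with predicted gene models left out, and 176 to 317 without 1 replicate. The 108 overlapped 87 of the 315 members (27.6%), so the set partly changed. Members in both blastocyst and neither 8-cell list numbered 11 with the score limit, 85 without predicted models and 0 to 49 without 1 replicate; those in both 8-cell and neither blastocyst list numbered 41, 205 and 0 to 138. The 0 arises by construction, since 1 list of a stage cannot give the 2 that the rule asks for. The difference of -81.5 members between blastocyst and 8-cell lists was 4.85 percentage points as a share of each library's intergenic regions and -117.5 to 21 regions without 1 replicate. It was positive without either 8-cell replicate (17.5 and 21). There a region needed a blastocyst peak to be kept, so the sign of the difference is partly set by the rule. With the replicate block it was -81.5, and the 2 numbers are shared labels only. The difference in the share within 5 kb was 0.67 when only peaks covering the larger part of a region counted, 1.69 within 2 kb, and -4.38 to 1.84 without 1 replicate; it was -11.8 with the score limit, -8.63 with equal numbers of peaks and -4.43 without predicted models. The fold percentile difference was -13.5 by q-value, 0.20 to 6.90 without 1 replicate, 12.2 in exactly 2 late lists, 10.9 with the score limit and 7.85 with equal numbers of peaks. The causes were not tested. The mean difference in peak width stayed negative under the 20 alternatives run, and was smallest, at -20.4 bp, in exactly 2 late lists. Depth is unknown, so a missing peak sets no upper limit, and the exact permutation tests over 4 libraries cannot pass 0.05.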
